A study of Mus musculus with 6 samples.

Results

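The genes described here encode the NF-kB transcription factor family and the proteins that hold it in check. They are the 5 subunits (Rela, Rel, Relb, Nfkb1 and Nfkb2), the 3 classical inhibitors (Nfkbia, Nfkbib and Nfkbie), the atypical inhibitor-like protein Nfkbiz and the feedback enzyme Tnfaip3. They were chosen by name, with earlier results of these data known, and all 10 were found among the 22939 genes of the count table. RNA was sequenced from 3 control regulatory T (ctrl-Treg) libraries and 3 sorafenib-treated (Sora-Treg) libraries. Sorafenib (Sora) is a multikinase inhibitor given to patients with liver cancer. In both groups naive CD4 T cells came from knock-in mice (Foxp3-GFP, of C57BL/6J background) that report Foxp3 from its own locus. They were stimulated through CD3 and CD28 by plate-bound antibodies with TGF-β1 and with antibodies that block IFN-γ and IL4. GFP+ cells were sorted for RNA, and the stated difference between the groups was the presence of Sora during culture. The cells are thus Treg cells induced in vitro, and the sources used here give no Sora dose, culture time or age for the sequenced libraries. Nothing says that the 3 libraries of a group came from separate cultures or animals, so the p-values measure only the spread between these libraries.

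NF-kB proteins are dimers that wait in the cytoplasm, bound to inhibitors of the IkB family, until a receptor signal makes IkB kinases mark the inhibitor for destruction. The classical route, driven in T cells by the antigen receptor and CD28, frees dimers of Rela, Rel and the processed Nfkb1 protein. The alternative route, driven by several TNF-family receptors, acts through the kinase encoded by Map3k14. That kinase triggers the processing of the Nfkb2 precursor into a partner of Relb. In Treg cells, Rel is known for its part in switching on Foxp3, and several inhibitor genes are themselves NF-kB targets, which closes a feedback loop.

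Because some of these genes are known to answer to NF-kB itself, their promoters are described first, with the NF-kB motifs they hold. RefSeq promoter windows (GRCm38.p6, 250 bases before to 50 bases after a start site) were held for 7 of the 10 genes, and for Nfkb1, Relb and Nfkbiz none was used. Both strands were searched for the 10-base NF-kB consensus and for a narrower form that overlaps it, namely GGG, any base at the next 2 places and then TTTCC. The consensus was present in a window of 5 of the 7 genes (Nfkb2, Nfkbia, Nfkbie, Rel and Tnfaip3), against 9.55% of 27025 genes in the table. The narrower form was present in 4 of the 7 (Nfkb2, Nfkbia, Rel and Tnfaip3), against 1.89% of genes. Neither motif was found in the windows of Nfkbib and Rela. A match describes letters in a window and is no evidence that a factor bound there. Stretches of these 4 genes that hold consensus matches are shown 5′ to 3′ on the strand of the gene, with the matched bases in capitals. Those of Rel, Nfkbia and Tnfaip3 are the 130 bases before the start site, and that of Nfkb2 is a 30-base stretch around its paired consensus matches, with its narrower matches outside it.
Rel, chr11:23770970-23771099, minus strand: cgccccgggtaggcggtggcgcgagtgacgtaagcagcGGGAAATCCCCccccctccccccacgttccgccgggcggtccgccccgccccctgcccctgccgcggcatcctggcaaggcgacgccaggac
Nfkbia, chr12:55492648-55492777, minus strand: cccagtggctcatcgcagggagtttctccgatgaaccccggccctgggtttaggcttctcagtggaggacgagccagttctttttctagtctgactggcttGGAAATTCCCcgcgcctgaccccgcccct
Tnfaip3, chr10:19015411-19015540, minus strand: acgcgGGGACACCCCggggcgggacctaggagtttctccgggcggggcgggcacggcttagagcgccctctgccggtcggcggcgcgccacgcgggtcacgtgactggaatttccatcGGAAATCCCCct
Nfkb2, chr19:46304688-46304717, plus strand: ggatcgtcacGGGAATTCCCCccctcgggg

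The match of Nfkbia began 29 bases before the start site, and those of Tnfaip3 began 125 and 12 bases before it. In Rel, a pair of overlapping matches began 92 and 91 bases before the start site. In Nfkb2, overlapping matches began 39 and 38 bases before the first of its 3 listed start sites, and a separate match of both motifs, GGGGCTTTCC, began 11 bases before it. The windows of its other 2 start sites shared a further match of both motifs, GGGACTTTCC, and 1 of them also held the consensus match GGAATGTCCC. In the annotation of GENCODE M21 the Nfkb2 stretch lies in the 5′ untranslated exon of a longer transcript, since that transcript starts upstream, and it also lies across an antisense noncoding RNA gene. In Nfkbie a single match, GGGGGATTCC, began 106 bases before the start site.

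Total counts per library ranged from 30727686 to 37717324, and a floor of 3 counts equalled 0.0762 to 0.0989 CPM, read counts scaled to a library of fixed size, here after TMM scaling (floors and counts cover counting error only). Over 13463 tested genes the biological coefficient of variation was 4.29%. Cd4 (means of 679 and 709 CPM) and Foxp3 (259 and 272 CPM) were present in all libraries. The 7 T cell and Treg markers measured summed to 3749 to 3794 CPM in ctrl-Treg and 6635 to 6764 CPM in Sora-Treg libraries. Of these, 6 were higher in Sora-Treg cells, and Ikzf2 (147 and 149 CPM) was not. Most of the difference in the sum came from Il2ra (1934 and 3795 CPM) and Ctla4 (383 and 1108 CPM). The summed level of 10 myeloid markers was 111, 115 and 45.3 CPM across ctrl-Treg replicates and 50.2, 70.3 and 46.9 CPM across Sora-Treg replicates. The ctrl-Treg replicates 1 and 2 carried the most, and of the 8 tested 1 was higher and 5 lower in Sora-Treg cells. Summed dendritic markers lay between 15.3 and 17.2 CPM in ctrl-Treg cells and between 4.28 and 4.86 CPM in Sora-Treg cells, and came mostly from Zbtb46 (15.4 and 4.13 CPM), 1 of the 2 tested, both lower, while Itgax, Xcr1 and Cd209a had at most 8 counts in any library. Summed B cell markers (5 tested, 1 higher and 4 lower) were 10.7 to 12.4 CPM and 15.0 to 16.4 CPM, and summed CD8 and NK cell markers (4 tested, 2 higher and 1 lower) were 16.4 to 18.6 and 20.6 to 22.6 CPM. The part of these cells in the results below was not tested. Without ctrl-Treg replicates 1 and 2 together, 3 NF-kB genes were higher and 6 lower, but the ctrl-Treg group then holds 1 library, which is assumed to vary as the Sora-Treg libraries do.

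All 10 genes passed the filter on low counts. In Sora-Treg cells 6 of them fell (Nfkb2, Nfkbie, Rel, Nfkbib, Nfkbia and Relb), 3 rose (Nfkbiz, Tnfaip3 and Nfkb1), and Rela did not pass the test (adjusted p by edgeR under 0.05). Among all tested genes 59.6% passed it, 29.7% as higher and 29.9% as lower, so most genes of any kind moved in this comparison. The median log2 fold change of the 10 genes was -0.47, beside -0.004 for all tested genes, and the median absolute change was 0.51 beside 0.28. Only Nfkb2 changed beyond 2-fold, which 4.97% of tested genes did as lower and 11.3% did in either direction. The groups did not overlap in 9 of the 10 genes, beside 63.7% of tested genes (31.8% as higher and 32% as lower). Scaling mattered for the split. With library totals alone, which moved the median of all genes by -0.12 on the log2 scale, 2 of the 10 were higher and 7 lower. In bulk RNA, fewer cells of a type and less RNA per cell cannot be told apart.

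**Figure D1:**
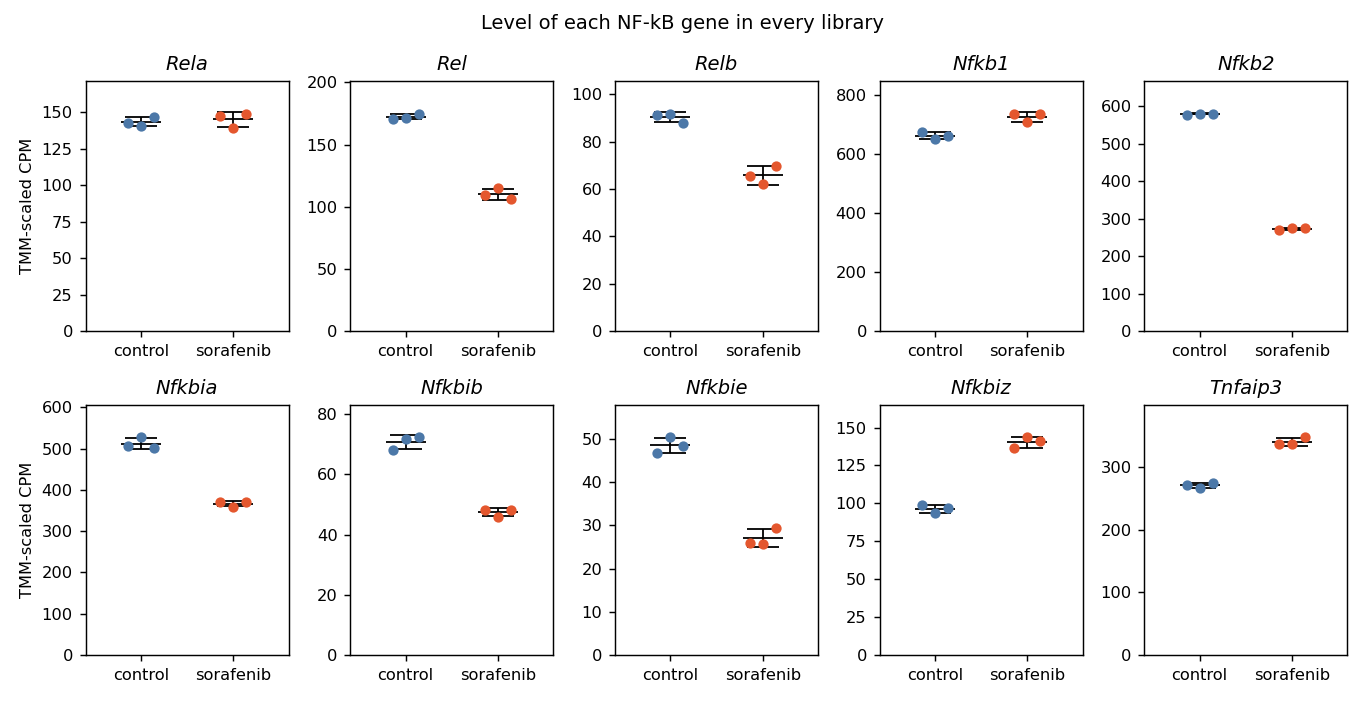
Level of each of the 10 NF-kB genes in TMM-scaled CPM (vertical axis, starting at 0 in each panel), with 1 point per library, the mean as a long line and the SD as a bar (n = 3 per group). The groups are apart in every gene but Rela, and the widest gap is that of Nfkb2, at 580 against 274 CPM.

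Among the subunits, Nfkb2 (chr19:46304320-46312385, plus strand), the precursor of the alternative route, fell most. Its level was 578, 581 and 581 CPM across ctrl-Treg replicates and 271, 274 and 276 CPM across Sora-Treg replicates. The replicates of each group lay within a few CPM of each other, and the groups were far apart. The log2 fold change was -1.08 ± 0.03 (± SE, adjusted p by edgeR = 6.72e-20), a level 2.12-fold lower in Sora-Treg cells, and 4.69% of tested genes had a lower log2 fold change. Nfkb2 shares 299 bases with the antisense gene Psd, which had 42 to 83 counts per library, beside 8220 to 22772 for Nfkb2.

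Relb (chr7:19606217-19629438, minus strand), the usual partner of the processed Nfkb2 protein, also fell. Its level was 91.1, 91.7 and 87.7 CPM across ctrl-Treg replicates and 65.3, 62.0 and 69.6 CPM across Sora-Treg replicates. No Sora-Treg library reached the lowest ctrl-Treg library. The change on the log2 scale was -0.46 ± 0.04 (± SE, adjusted p by edgeR = 4.73e-09).

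Rel (chr11:23736847-23770970, minus strand), the subunit most tied to lymphocyte activation, had 171, 172 and 175 CPM across ctrl-Treg replicates and 109, 115 and 106 CPM across Sora-Treg replicates. All Sora-Treg libraries were well below the ctrl-Treg ones. It had a log2 fold change of -0.65 ± 0.04 (± SE, adjusted p by edgeR = 2.61e-13), or 36.2% lower.

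Rela (chr19:5637483-5648130, plus strand), the subunit with the strongest activation domain of the classical route, had 143, 140 and 147 CPM across ctrl-Treg replicates and 147, 139 and 149 CPM across Sora-Treg replicates. The groups overlapped on this scale. On the log2 scale it changed by 0.02 ± 0.03 (± SE, adjusted p by edgeR = 0.660), with a 95% interval from -0.05 to 0.09. The sign depended on the scaling: with library totals alone the log2 fold change was -0.10 (adjusted p by edgeR = 0.0196), and on the deposited FPKM the groups did not overlap, with 51.9 ± 1.16 against 48.5 ± 1.75 (± SD with n = 3).

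Nfkb1 (chr3:135584655-135691547, minus strand), the precursor of the usual partner of Rela and Rel, had 674, 652 and 660 CPM across ctrl-Treg replicates and 736, 707 and 737 CPM across Sora-Treg replicates. Each Sora-Treg library lay above all ctrl-Treg libraries. The rise was small, with a log2 fold change of 0.13 ± 0.03 (± SE, adjusted p by edgeR = 1.07e-04), and it was lost with library totals alone, where the log2 fold change was 0.02 (adjusted p by edgeR = 0.563). On the deposited FPKM the groups overlapped, at 151 ± 3.07 and 153 ± 3.72 (± SD with n = 3). Rela and Nfkb1 were therefore the pair whose call rested on the scaling, while the calls of the other 8 genes held under all 18 alternatives run, 1 of which leaves a single ctrl-Treg library.

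**Figure D2:**
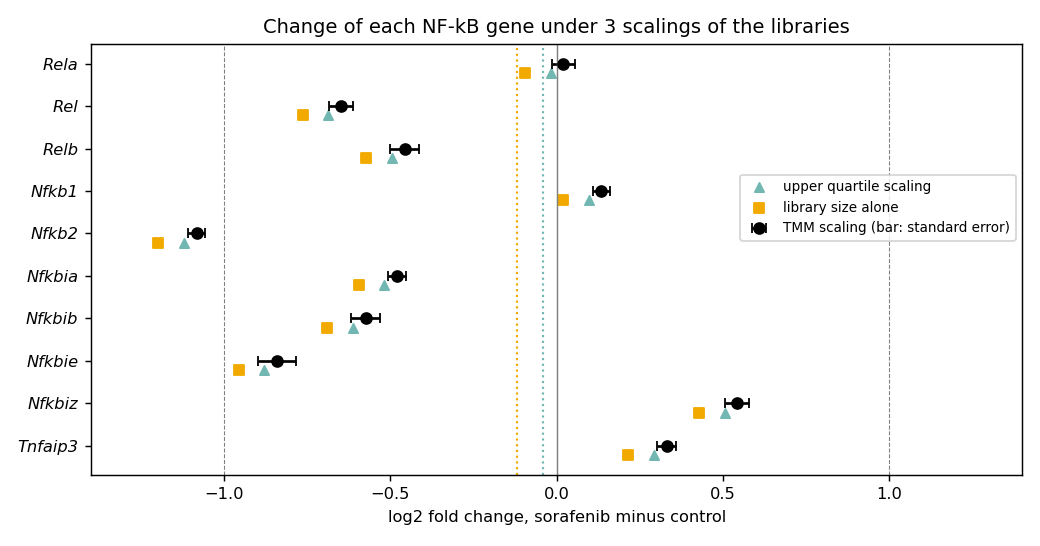
Log2 fold change of each NF-kB gene, Sora-Treg minus ctrl-Treg (horizontal axis), under TMM scaling (circles, bars are SE), upper quartile scaling (triangles) and library totals alone (squares), with dashed lines at 2-fold and dotted lines at the median of all tested genes under each of the latter scalings. Rela turns from 0.02 to -0.10 and Nfkb1 moves from 0.13 to 0.02 with library totals, and the other 8 genes keep their side of 0.

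Of the 3 classical inhibitors, which mask the nuclear entry signal of the dimers, all fell. Nfkbia (chr12:55489410-55492647, minus strand), which encodes IkB alpha, the fast feedback inhibitor, had 507, 527 and 502 CPM across ctrl-Treg replicates and 372, 359 and 370 CPM across Sora-Treg replicates. Its log2 fold change was -0.48 ± 0.03 (± SE, adjusted p by edgeR = 7.23e-13). All Sora-Treg libraries were lower than all ctrl-Treg libraries.

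Nfkbib (chr7:28758251-28767512, minus strand), which encodes IkB beta, had 68.2, 71.9 and 72.3 CPM across ctrl-Treg replicates and 48.3, 46.0 and 48.2 CPM across Sora-Treg replicates. The groups were separated by many times their spread. The log2 fold change was -0.58 ± 0.04 (± SE, adjusted p by edgeR = 1.12e-10). The gene shares 778 bases with Sirt2 on the opposite strand, which had 2829 to 3477 counts per library and a log2 fold change of 0.17 ± 0.04 (± SE, adjusted p by edgeR = 5.10e-04), and whether the counting used strand is not stated, so Nfkbib is less certain than the other inhibitors. It also overlaps Ccer2, which had at most 4 counts.

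Nfkbie (chr17:45555703-45563169, plus strand), which encodes IkB epsilon, showed the largest fall of the 3 inhibitors. Its level was 46.7, 50.4 and 48.4 CPM across ctrl-Treg replicates and 25.9, 25.7 and 29.4 CPM across Sora-Treg replicates. The change on the log2 scale was -0.84 ± 0.06 (± SE, adjusted p by edgeR = 2.00e-11), which is 44.3% lower. Sora-Treg replicate 3 was the highest of its group and still far below the ctrl-Treg libraries.

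Nfkbiz and Tnfaip3 moved the other way. Nfkbiz (chr16:55811375-55838899, minus strand) encodes a nuclear IkB-like protein that works with Nfkb1 dimers at a subset of promoters. It had 98.7, 93.4 and 96.9 CPM across ctrl-Treg replicates and 136, 144 and 141 CPM across Sora-Treg replicates. It had a log2 fold change of 0.54 ± 0.04 (± SE, adjusted p by edgeR = 9.16e-12), the largest rise among the 10 genes, and 86.2% of tested genes had a lower log2 fold change.

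Tnfaip3 (chr10:19000910-19015657, minus strand) encodes a ubiquitin-editing enzyme that shuts down signaling upstream of the IkB kinases. Its level was 271, 266 and 275 CPM across ctrl-Treg replicates and 337, 337 and 348 CPM across Sora-Treg replicates. On the log2 scale it changed by 0.33 ± 0.03 (± SE, adjusted p by edgeR = 6.06e-10), or 25.7% higher. Of the 4 genes whose promoter windows held the narrower motif, Nfkb2, Rel and Nfkbia thus fell and Tnfaip3 rose.

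To compare levels between genes, values were taken per length. The deposited FPKM divide by 1 length per gene, which was 11300 bases for Nfkb2 and 6167 bases for Relb. These exceed the longest annotated coding transcripts (3846 and 2209 bases), and for Nfkb2 also the whole gene (8066 bases), whereas for the other 8 genes the lengths were 0.942 to 1.11 times the longest coding transcript. Levels were therefore also computed with the annotated length. On the deposited FPKM the order in ctrl-Treg cells was Nfkbia (337), Nfkb1 (151), Tnfaip3 (58.9), Nfkb2 (53.4), Rela (51.9), Nfkbib (34.7), Nfkbiz (25.8), Rel (24.0), Nfkbie (20.7) and Relb (15.2), with no overlap between neighbours. In Sora-Treg cells Nfkbia (223) and Nfkb1 (153) still led, Nfkb2 (23.3) stood behind Rela (48.5) and Nfkbiz (34.7), and Nfkbie (10.6) and Relb (10.2) overlapped at the end. With the annotated length Nfkb2 stood next to Nfkb1 in ctrl-Treg cells (157 and 167), and behind Tnfaip3 in Sora-Treg cells (68.4 and 73.9). Relb was at 42.5 and 28.5 on that scale, and the ctrl-Treg libraries of Nfkbiz (24.3) and Rel (24.0) overlapped.

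The make-up of the subunit pool within a library does not depend on how libraries are scaled. Nfkb1 took a larger share of the summed FPKM of the 5 subunits in Sora-Treg cells, with 51.7%, 50.9% and 50.9% across ctrl-Treg replicates and 61.7%, 61.2% and 61.4% across Sora-Treg replicates. The share of Nfkb2 went the other way, from 17.9%, 18.3% and 18.0% to 9.15%, 9.57% and 9.28%. The groups were far apart in both. Mean shares without and with Sora were 17.5 ± 0.312% and 19.5 ± 0.283% for Rela. They were 8.13 ± 0.120% and 5.68 ± 0.358% for Rel, and 5.15 ± 0.150% and 4.10 ± 0.166% for Relb (± SD with n = 3). With annotated lengths the directions were the same and the sizes differed, with Nfkb1 at 37.6% and 51.1% and Nfkb2 at 35.2% and 20.6%. Shares add up to a fixed total, so a share can rise when other genes fall. The FPKM of Nfkb1 itself was 151 and 153, with overlapping groups, and that of Rela was 51.9 and 48.5.

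**Figure D3:**
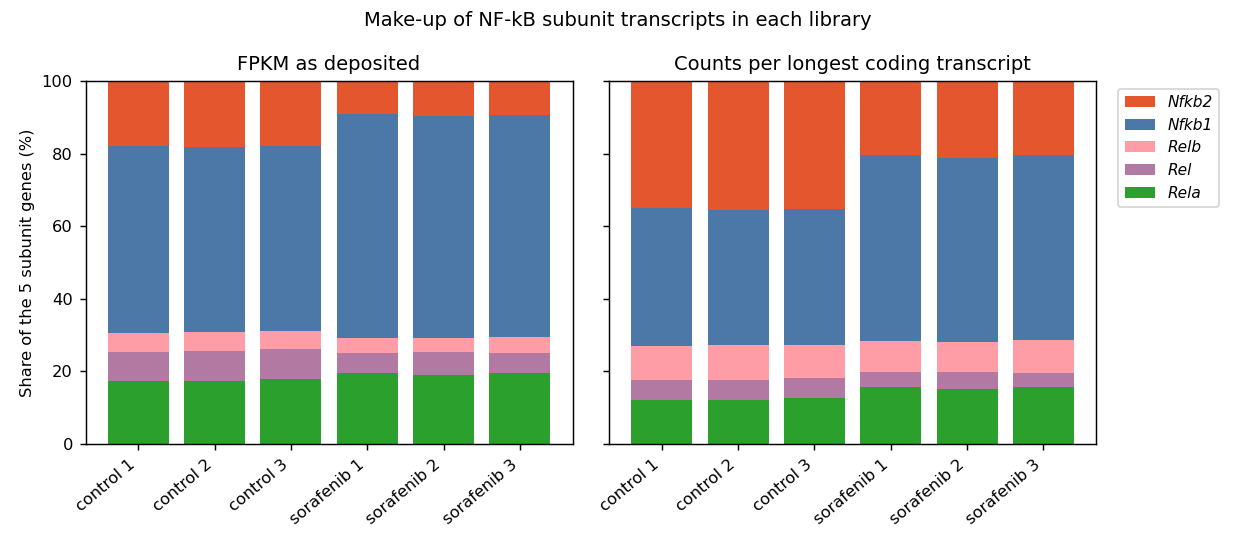
Share of each of the 5 subunit genes in their summed level (vertical axis, percent) in each library, on the deposited FPKM (left) and on counts divided by the longest annotated coding transcript (right). The band of Nfkb2 narrows and that of Nfkb1 widens in all 3 Sora-Treg libraries on both scales. Bands add up to a fixed total, so a band can widen without a rise in the level of its gene.

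Ratios between partners were computed in the same way. The ratio of Nfkb2 to Nfkb1, the precursors of the alternative and the classical route, changed by -1.22 on the log2 scale, from a mean log2 ratio of -1.50 ± 0.0278 to -2.72 ± 0.0377 on FPKM (± SD with n = 3). This difference is the same whatever length is used. The ratio of Relb to Rela changed by -0.48 on the log2 scale. The ratio of the summed classical inhibitors to the summed subunits went from 1.33 without Sora to 1.02 with it on FPKM, a log2 change of -0.37, and 0.884 and 0.772 with annotated lengths, a log2 change of -0.20. For each of these 5 shares and 3 ratios the groups did not overlap, and the two-sided exact permutation test gave p = 0.1 (0.1 after Benjamini-Hochberg adjustment over the 8), the smallest value that 3 libraries against 3 can give.

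The rest of the pathway was described through 8 lists with 101 distinct genes, all of which passed the filter. In these lists 38 genes rose, 43 fell and 20 did not pass the test, so 80.2% passed it, beside 59.6% of all tested genes (29.7% as higher and 29.9% as lower). With a filter of at least 1 CPM in at least 3 libraries, 65.0% of all genes passed. The lists were chosen with earlier results known and were not matched to other genes by level. With library totals alone 28 were higher and 51 lower. The median log2 fold change was -0.05, and 4 genes were higher and 15 lower beyond 2-fold (beside 6.3% and 4.97% of tested genes). Each list below is described by its counts, to be read against those shares, and none is a test of the pathway's activity.

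The list of other IkB-like proteins, which also takes in the repressor Nkrf, held 5 genes. Of these 1 rose and 2 fell, with a median of -0.35. Nfkbid, which encodes a nuclear IkB protein induced by antigen receptor signals, had 90.1, 84.5 and 87.5 CPM across ctrl-Treg replicates and 26.7, 22.5 and 23.7 CPM across Sora-Treg replicates. It fell by 1.85 on the log2 scale (SE 0.05, adjusted p by edgeR = 2.71e-18), to less than every ctrl-Treg value by a wide margin. Bcl3, a nuclear IkB-like partner of Nfkb1 and Nfkb2 dimers, rose, with a log2 fold change of 0.44 ± 0.04 (± SE, adjusted p by edgeR = 1.05e-09), and the repressor Nkrf fell by 0.39 (SE 0.09, adjusted p by edgeR = 6.80e-04).

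Of 10 genes for kinases of IkB and of the Nfkb2 precursor and their partners, 2 rose, 5 fell and 3 did not pass, with a median of -0.11. With library totals alone 1 was higher and 6 were lower. Ikbke, an IkB kinase relative, fell from 273 ± 3.35 to 132 ± 4.37 CPM (± SD with n = 3), a log2 fold change of -1.05 ± 0.03 (± SE, adjusted p by edgeR = 5.78e-18). The other changes were small. Chuk (IkB kinase alpha) and Map3k7 had log2 fold changes of -0.27 ± 0.04 and -0.17 ± 0.04, and Map3k14, the kinase that triggers Nfkb2 processing, had 0.29 ± 0.05 (± SE, adjusted p by edgeR at most 3.99e-04 for each). Tbk1 (0.11 ± 0.04, adjusted p by edgeR = 0.0253) turned to -0.003 with library totals alone. Its call was also lost with upper quartile scaling, with a looser filter on counts and with DESeq2. The same held without ctrl-Treg replicate 3 or without Sora-Treg replicate 3.

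Along the route from the antigen receptor to the IkB kinases, 6 of 12 genes rose and 5 fell, with a median of 0.13, and with library totals alone 4 were higher and 5 lower. Malt1, a protease and scaffold of this route, stood apart, with 180, 178 and 179 CPM across ctrl-Treg replicates and 474, 508 and 499 CPM across Sora-Treg replicates. Its log2 fold change was 1.46 ± 0.03 (± SE, adjusted p by edgeR = 5.11e-21). Prkcq, the protein kinase C of the T cell synapse, and Casp8 rose by 0.51 ± 0.03 and 0.31 ± 0.03, while Rbck1, part of the linear ubiquitin complex, Prkcb and Ube2n had log2 fold changes of -0.42 ± 0.03, -0.31 ± 0.04 and -0.17 ± 0.05 (± SE, adjusted p by edgeR at most 0.00294 for each).

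Among 10 TRAF and IAP regulators, most of which relay signals from TNF-family receptors, 6 rose and 3 fell, with a median of 0.19. Traf1 rose from 226 ± 2.69 to 352 ± 8.22 CPM (± SD with n = 3), a log2 fold change of 0.64 ± 0.03 (± SE, adjusted p by edgeR = 6.71e-15). Birc2, whose protein takes part in keeping Map3k14 protein low, and Traf3ip2 had log2 fold changes of 0.42 ± 0.04 and 0.41 ± 0.05, and Traf3, which also holds Map3k14 low, had -0.20 ± 0.04 (± SE, adjusted p by edgeR at most 1.61e-04 for each). Traf5 fell by 0.71 (SE 0.08, adjusted p by edgeR = 1.58e-07). Fadd (-0.31 ± 0.10, adjusted p by edgeR = 0.0127) lost its call without ctrl-Treg replicate 3 (-0.20) or Sora-Treg replicate 2 (-0.22).

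Of 16 brakes on the pathway beside Tnfaip3, 8 rose, 3 fell and 5 did not pass, with a median of 0.11. The balance turned with library totals alone, where 5 were higher and 6 lower, and it was 7 and 5 with upper quartile scaling. Nlrc3, Rnf11 and Zc3h12d had log2 fold changes of 0.82 ± 0.05, 0.73 ± 0.06 and 0.58 ± 0.03 (± SE, adjusted p by edgeR at most 4.71e-10 for each). The deubiquitinase gene Cyld fell slightly, by 0.20 (SE 0.04, adjusted p by edgeR = 3.61e-05). Tnip3, whose protein binds that of Tnfaip3, was at a low level and went from 6.16 ± 0.865 to 1.63 ± 0.259 CPM (± SD with n = 3), a log2 fold change of -1.93 ± 0.18 (± SE, adjusted p by edgeR = 3.10e-09). Zc3h12a (-0.12 ± 0.04, adjusted p by edgeR = 0.0148) lost its call without ctrl-Treg replicate 2 or Sora-Treg replicate 2 (-0.11 and -0.10).

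**Figure D4:**
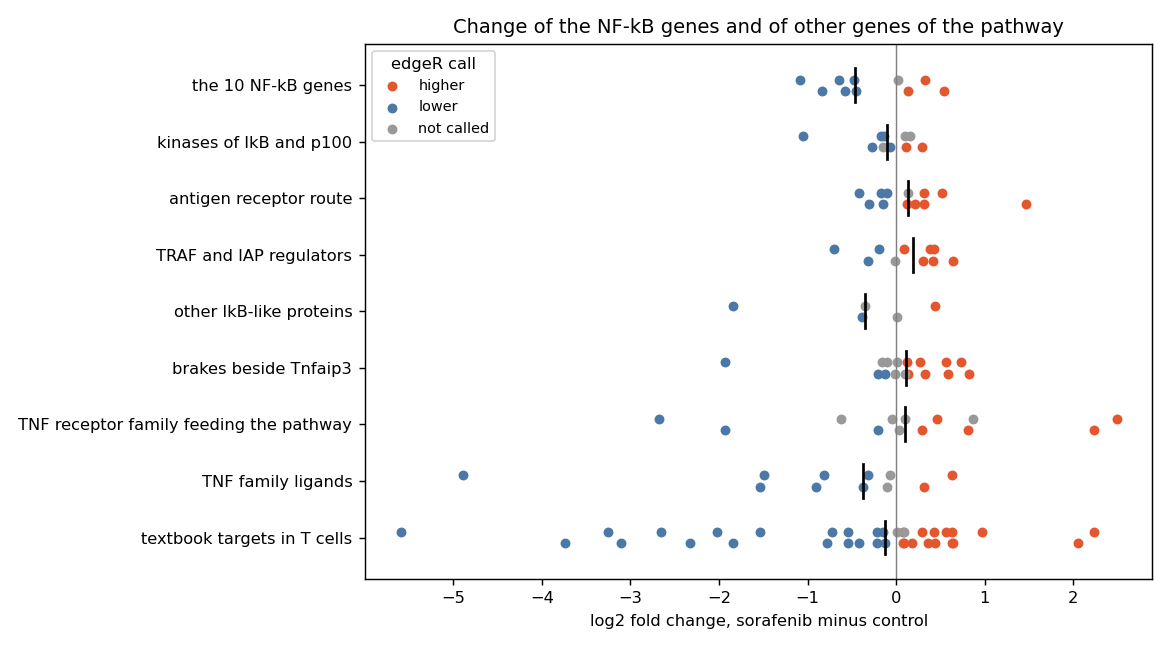
Log2 fold change, Sora-Treg minus ctrl-Treg (horizontal axis), of the 10 NF-kB genes and of the genes of 8 further pathway lists, with 1 point per gene coloured by the edgeR call and a black bar at the median of each list. The 10 NF-kB genes have a median of -0.47, the TNF-family ligands and target genes reach furthest down (Cd70 and Il2), and the receptors Tnfrsf8 and Tnfrsf9 reach furthest up.

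Receptors of the TNF family that feed the pathway were split, with 5 of 13 higher, 3 lower and 5 that did not pass. Tnfrsf9 and Tnfrsf8, costimulatory receptors of activated T cells, rose from 505 ± 4.56 to 2379 ± 11.4 CPM and from 41.8 ± 2.27 to 234 ± 4.78 CPM (± SD with n = 3), which are log2 fold changes of 2.24 ± 0.02 and 2.49 ± 0.04 (± SE, adjusted p by edgeR = 1.32e-26 and 4.92e-23). Tnfrsf18, a receptor rich on Treg cells, rose by 0.81 ± 0.03 on the log2 scale (± SE, adjusted p by edgeR = 1.54e-16). Tnfrsf25 had a log2 fold change of -0.20 ± 0.04 (± SE, adjusted p by edgeR = 3.50e-04). Cd40 and Tnfrsf11a, receptors better known from antigen-presenting cells, were low and fell further, from 7.20 ± 0.703 to 1.88 ± 0.293 CPM and from 2.05 ± 0.190 to 0.318 ± 0.0727 CPM (± SD with n = 3, adjusted p by edgeR = 5.88e-10 and 3.61e-07). The dendritic markers given above also differed between the groups, and their part in these falls was not tested.

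Among 11 ligands of the TNF family, 2 rose and 7 fell, with a median of -0.37, beside 29.7% and 29.9% of all tested genes. Tnf had 94.8, 94.6 and 101 CPM across ctrl-Treg replicates and 33.4, 31.2 and 34.8 CPM across Sora-Treg replicates, a log2 fold change of -1.54 ± 0.05 (± SE, adjusted p by edgeR = 6.02e-18). Tnfsf4 fell from 42.1 ± 2.11 to 14.9 ± 0.542 CPM (± SD with n = 3, adjusted p by edgeR = 3.22e-15). Cd70 went from 189 to 221 counts per ctrl-Treg library to 11, 6 and 1 counts in the Sora-Treg libraries (adjusted p by edgeR = 1.04e-11), and so few counts leave the size of its fold imprecise. Lta and Ltb, which neighbour Tnf in the genome, rose, with log2 fold changes of 0.63 ± 0.03 and 0.32 ± 0.03 (± SE, adjusted p by edgeR = 2.74e-15 and 1.10e-09).

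Of 35 textbook targets of NF-kB in T cells, 15 rose and 18 fell, with a median of -0.12, and with library totals alone 11 were higher and 19 lower. The largest falls were those of Il2, the growth factor of activated T cells, Csf2 and Ccnd1. Il2 had 72.2, 71.7 and 78.7 CPM across ctrl-Treg replicates and 1.55, 1.38 and 1.66 CPM across Sora-Treg replicates, a log2 fold change of -5.59 ± 0.08 (± SE, adjusted p by edgeR = 1.41e-23). Csf2 fell from 27.8 ± 1.24 to 2.92 ± 0.210 CPM (± SD with n = 3, adjusted p by edgeR = 2.80e-18). Ccnd1 was low throughout, at 5.22 ± 0.640 and 0.390 ± 0.180 CPM (± SD with n = 3, adjusted p by edgeR = 2.33e-11). The largest rises were those of Tnfrsf9, of the glucose transporter gene Slc2a3, from 592 ± 9.26 to 2451 ± 32.3 CPM (adjusted p by edgeR = 1.04e-25), and of the interleukin 2 receptor chain gene Il2ra, from 1934 ± 32.1 to 3795 ± 54.1 CPM (± SD with n = 3, adjusted p by edgeR = 1.85e-20).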

How the data were processed

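The authors deposited raw read counts per gene symbol for 22939 genes in 6 libraries, and FPKM values for the same genes. Each FPKM equalled the count divided by the library total and by 1 length a gene (largest relative spread of the implied length 1.64e-06), so FPKM added no measurement. The sources on how the counts were made differ. The study's methods name Bowtie2, GRCm38 and an expectation-maximization algorithm, whereas the submitters' processing notes name fastp, HISAT2, HTSeq, R 3.2.0, DESeq2 and GRCm39. Strand and annotation release were not given in the sources used here. Coordinates are from GENCODE M21 (GRCm38), found by symbol for all 10 genes, and promoters from RefSeq (GRCm38.p6).

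Groups and replicate numbers came from the sample titles. Counts of both groups were compared in R 4.3.3 by edgeR 4.0.16, using its quasi-likelihood test (TMM scaling, filterByExpr, 13463 genes tested, no covariate, Benjamini-Hochberg adjustment over all tested genes). Genes with an adjusted p under 0.05 were called. SE is the one that the F statistic implies. Shares and ratios within a library were compared with two-sided exact permutation tests in scipy 1.17.1. On simulated counts with 200 changed genes, edgeR recovered 97.5% with 6.25% false calls over 13526 genes tested. In the real data 59.6% of tested genes were called, a far larger share than was changed in the simulation. These rates therefore describe the simulation and do not carry over to the results above. The effect of scaling where most genes change was not tested by the simulation. In each group every pair of libraries differed by more than sampling noise (chi-square per degree of freedom 3.44 to 6.14).

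Members and lists were chosen with earlier results of these data known. All 10 members are named. From each of the other 8 lists, up to 3 genes with the largest and 3 with the smallest log2 fold change among called genes are named, and markers and overlapping genes are given by count or level. Alternatives were other scalings (RLE, upper quartile, library totals), other filters, DESeq2 1.42.0, a robust fit, a block on the replicate number, limma 3.58.1 on log2(FPKM + 1) and log2(FPKM + 0.1), and each library left out. Annotated lengths and leaving out ctrl-Treg replicates 1 and 2 together were chosen after seeing the data. The authors' own comparisons were not used. Most genes of these lists are counted but not named, and some are not reported here.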

Additional observations from a re-analysis of the deposited data

How the results depend on the processing

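Of the 10 NF-kB genes, 8 kept their direction and their side of the threshold under all 18 alternatives, the exceptions being Nfkb1 and Rela. In 1 of the 18, without ctrl-Treg replicates 1 and 2 together, a single ctrl-Treg library is assumed to vary like the Sora-Treg libraries, so that it is a weak check. The call of Nfkb1 was lost with library totals alone (log2 fold change 0.0184), with limma on log2(FPKM + 1) (0.0183 with and without a filter) and on log2(FPKM + 0.1) (0.0184). Rela, not called in the main fit, turned negative with upper quartile scaling (-0.0188), library totals (-0.0964), limma on log2(FPKM + 1) (-0.0953 with and without a filter) and log2(FPKM + 0.1) (-0.0970), and without ctrl-Treg replicates 1 and 2 together (-0.0138). It was called as lower with library totals and with both filtered limma fits, where 7 of the 10 genes were lower, but not with limma without a filter. FPKM are scaled by library totals, by construction. The cause of the other turns was not tested. Among the other genes named, Tbk1 turned to -0.00310 with library totals and to -0.00196, -0.00204 and -0.00196 on FPKM. The calls of Tbk1, Fadd and Zc3h12a were lost under some alternatives, while 39 of 42 kept direction and side in every alternative that tested them. For Ccnd1 and Tnfrsf11a these were 16 of the 18, since the FPKM filter removed both genes from the others.

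With 1 library left out at a time, log2 fold changes ranged from 0.125 to 0.155 for Nfkb1, -1.09 to -1.07 for Nfkb2, -0.68 to -0.62 for Rel, 0.00105 to 0.0498 for Rela, -0.50 to -0.42 for Relb, -0.50 to -0.46 for Nfkbia, -0.60 to -0.55 for Nfkbib, -0.91 to -0.80 for Nfkbie, 0.52 to 0.57 for Nfkbiz and 0.32 to 0.34 for Tnfaip3, and the counts stayed at 3 higher and 6 lower. Of the other pathway genes 32 to 39 were then higher and 40 to 43 lower, and with library totals 28 and 51 (28 and 48 to 49 on FPKM). Counts of single lists moved most, over all alternatives, for the kinases and the brakes, both as higher and as lower. The counts of lower genes in the antigen receptor route and among the TNF receptors also moved. With library totals alone the split over all genes went from 3994 higher and 4028 lower to 2862 and 5614. The 8 shares and ratios kept their direction with each library left out and with annotated or no lengths. The block cannot move their values, nor can the length move the differences in Nfkb2 to Nfkb1 and in Relb to Rela.

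Same-numbered libraries did not deviate together (correlations across genes of -0.0438, 0.0591 and 0.0299), so the numbers were not taken as a pairing. With the replicate number as a block, 3 NF-kB genes were higher and 6 lower, and 40 and 43 of the other pathway genes, so the block changed no call of the 10. Depth did not limit these genes, whose lowest count was 787. It limited Cd70, Tnfrsf11a and Ccnd1, and with 3 libraries a group no single share could pass 0.05.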
